A study of Homo sapiens with 2 samples.

Results

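The 34 interferon response genes described here were chosen by symbol, from a fixed list, out of 46732 genes in the deposited gene table, and all 34 were found there. They were measured by RNA-seq in 2 libraries of T47D secondary mammospheres, 1 of CIC knockdown cells and 1 of control cells. T47D is an established luminal, estrogen receptor-positive breast cancer line, and mammospheres are floating spheres that its cells form when they cannot attach. Both groups spent 7 days as primary spheres and, after passage, 7 days as secondary spheres, and the labels record no interferon or other agent for either group. The design text speaks of duplicates, but each group has 1 column, called a library here. A column may be a pool of both duplicates, which the sources leave unstated, so no spread between replicates could be measured and every statement below describes these 2 columns. How CIC was knocked down is not stated in the sources used here.

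Cells answer type I interferon through a receptor at the surface, the kinases JAK1 and TYK2, and a complex that contains STAT2 and IRF9. The complex binds interferon-stimulated response elements upstream of its target genes. The targets include sensors of viral RNA, enzymes that degrade RNA or stop its translation, and the ubiquitin-like modifier ISG15. In epithelial and tumour cells part of this programme is transcribed at a low level without added interferon.

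CIC, the transcriptional repressor named by the label, had 872 counts in the library labelled CIC knockdown and 607 in the control library, a ratio of 0.98 (95% counting interval 0.882 to 1.09). Ratios are of counts normalised for library size and composition. The interval is exact (Clopper-Pearson) and covers counting error only. CIC mRNA was thus not reduced, every direction below rests on the labels alone, and each library is called by its label. ETV5 and ETV4, 2 known CIC targets, stood at 4.97 times (4.24 to 5.86) and 4.69 times (3.71 to 6.0) the control level. The library labelled CIC knockdown held 68420805 counts and the control library 47099221. All 10 luminal epithelial markers were measured and lay within 1.2-fold of equal levels, and the keratin gene KRT8 stood at 2910 TPM in the library labelled CIC knockdown and 2950 TPM in control. Of 10 leukocyte markers, 6 had 0 counts in both libraries, and the list summed to 1.39 TPM in the library labelled CIC knockdown and 1.18 TPM in control. Of 6 markers of plasmacytoid dendritic cells, the main interferon producers of blood, 5 had 0 counts in both libraries and the sixth, SPIB, had 4 in the knockdown-labelled library and 0 in control. Endothelial markers summed to 75 counts in the knockdown-labelled library and 30 in control, a ratio of 1.71 (1.1 to 2.7). VWF had 40 counts in the knockdown-labelled library and 28 in control, and PECAM1 had 16 in the knockdown-labelled library and 2 in control. KDR had 12 and CDH5 had 7 in the knockdown-labelled library, with 0 in control, and TEK and CLDN5 had 0 in both libraries. Fibroblast markers summed to 26 TPM in the library labelled CIC knockdown and 14.1 TPM in control, mostly from COL3A1, while LUM stood at 2.44 TPM in the knockdown-labelled library and 4.44 TPM in control, and PDGFRA, PDGFRB and COL1A2 had 0 counts in both. Their part in the results below was not tested.

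The interferon-stimulated response element was looked for as its core letters GAAANNGAAA (TTTCNNTTTC on the other strand) in the 250 bases before each annotated transcript start. RefSeq promoter windows on GRCh38.p14 were matched by gene identifier for 29 of the 34 genes, in 39 windows. Of these 29 genes, 18 (62.1%) held the core in at least 1 window, against 1014 of 27305 genes (3.71%) with a window. Several genes held 2 or 3 cores, and in ISG15, BST2, HERC5 and IFIH1 a pair of cores overlapped. The sequences of 7 windows are shown because these genes include the most abundant members, members on either side of equal levels and a divergent gene pair. Each is 250 bases long and reads toward its gene, and capitals mark the core on either strand.
ISG15, chr1:1013247-1013496, plus strand: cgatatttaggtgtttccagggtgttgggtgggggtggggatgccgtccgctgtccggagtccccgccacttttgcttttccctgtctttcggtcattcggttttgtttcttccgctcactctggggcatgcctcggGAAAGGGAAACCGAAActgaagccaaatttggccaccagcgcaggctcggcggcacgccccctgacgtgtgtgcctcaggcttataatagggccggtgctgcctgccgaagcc
IFI6, chr1:27672193-27672442, minus strand: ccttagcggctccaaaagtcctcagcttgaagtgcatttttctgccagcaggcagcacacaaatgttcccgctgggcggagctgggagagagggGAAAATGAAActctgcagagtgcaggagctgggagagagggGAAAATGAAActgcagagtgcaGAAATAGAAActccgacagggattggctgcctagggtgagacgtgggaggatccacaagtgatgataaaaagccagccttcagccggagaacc
IFIT1, chr10:89392373-89392622, plus strand: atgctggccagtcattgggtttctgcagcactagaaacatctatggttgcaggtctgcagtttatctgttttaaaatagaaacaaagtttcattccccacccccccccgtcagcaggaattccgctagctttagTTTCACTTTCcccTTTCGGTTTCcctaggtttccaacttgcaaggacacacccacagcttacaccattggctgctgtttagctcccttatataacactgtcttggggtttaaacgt
IFIT3, chr10:89327747-89327996, plus strand: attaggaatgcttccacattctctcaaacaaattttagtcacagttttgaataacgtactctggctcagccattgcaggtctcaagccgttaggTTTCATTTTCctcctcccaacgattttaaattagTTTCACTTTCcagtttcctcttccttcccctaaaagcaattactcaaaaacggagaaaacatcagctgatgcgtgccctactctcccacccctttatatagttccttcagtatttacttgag
BST2, chr19:17405631-17405880, minus strand: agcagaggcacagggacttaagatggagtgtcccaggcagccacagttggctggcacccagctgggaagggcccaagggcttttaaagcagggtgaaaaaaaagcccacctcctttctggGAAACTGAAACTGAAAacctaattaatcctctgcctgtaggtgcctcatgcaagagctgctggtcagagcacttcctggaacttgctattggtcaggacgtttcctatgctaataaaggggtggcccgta
PARP9, chr3:122564301-122564550, minus strand: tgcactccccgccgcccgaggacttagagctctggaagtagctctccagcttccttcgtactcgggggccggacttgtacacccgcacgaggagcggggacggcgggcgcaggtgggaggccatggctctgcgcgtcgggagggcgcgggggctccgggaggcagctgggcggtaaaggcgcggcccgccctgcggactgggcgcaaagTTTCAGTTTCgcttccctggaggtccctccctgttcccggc
CMPK2, chr2:6865820-6866069, minus strand: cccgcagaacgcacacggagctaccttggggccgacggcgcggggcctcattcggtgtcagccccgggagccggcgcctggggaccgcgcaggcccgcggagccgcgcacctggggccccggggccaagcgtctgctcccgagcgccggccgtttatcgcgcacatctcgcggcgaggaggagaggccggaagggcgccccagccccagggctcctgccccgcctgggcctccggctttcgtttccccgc

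Among these sequences, that of ISG15 and that of BST2 each carry a single uninterrupted run of capitals made of 2 overlapping cores. IFI6 carries 3 separate cores, first bases at -156, -115 and -93 from the transcript start, and IFIT1 and IFIT3 carry 2 each. The PARP9 window covers the first bases of DTX3L, which is transcribed the other way, and holds 1 core. None of the 3 CMPK2 windows held the core, nor did those of DDX58, STAT2, HERC6, XAF1 or SAMD9L, which says only that these letters are not in those bases. The gamma-activated sequence, searched as TTCNNNGAA, which reads the same on both strands, was found in 8 of the 29 genes (27.6%), against 8.09% of all genes with a window. In IFI27, BST2 and MX1 it overlapped a response element core. The octamers TGAATGAA, TGAATGGA, TCAATGAA and TCAATGGA, searched on both strands as letters CIC is known to bind, occurred upstream of 1 of 29 members (3.45%), IFI35, and of 3.92% of all genes.

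**Figure D1:**
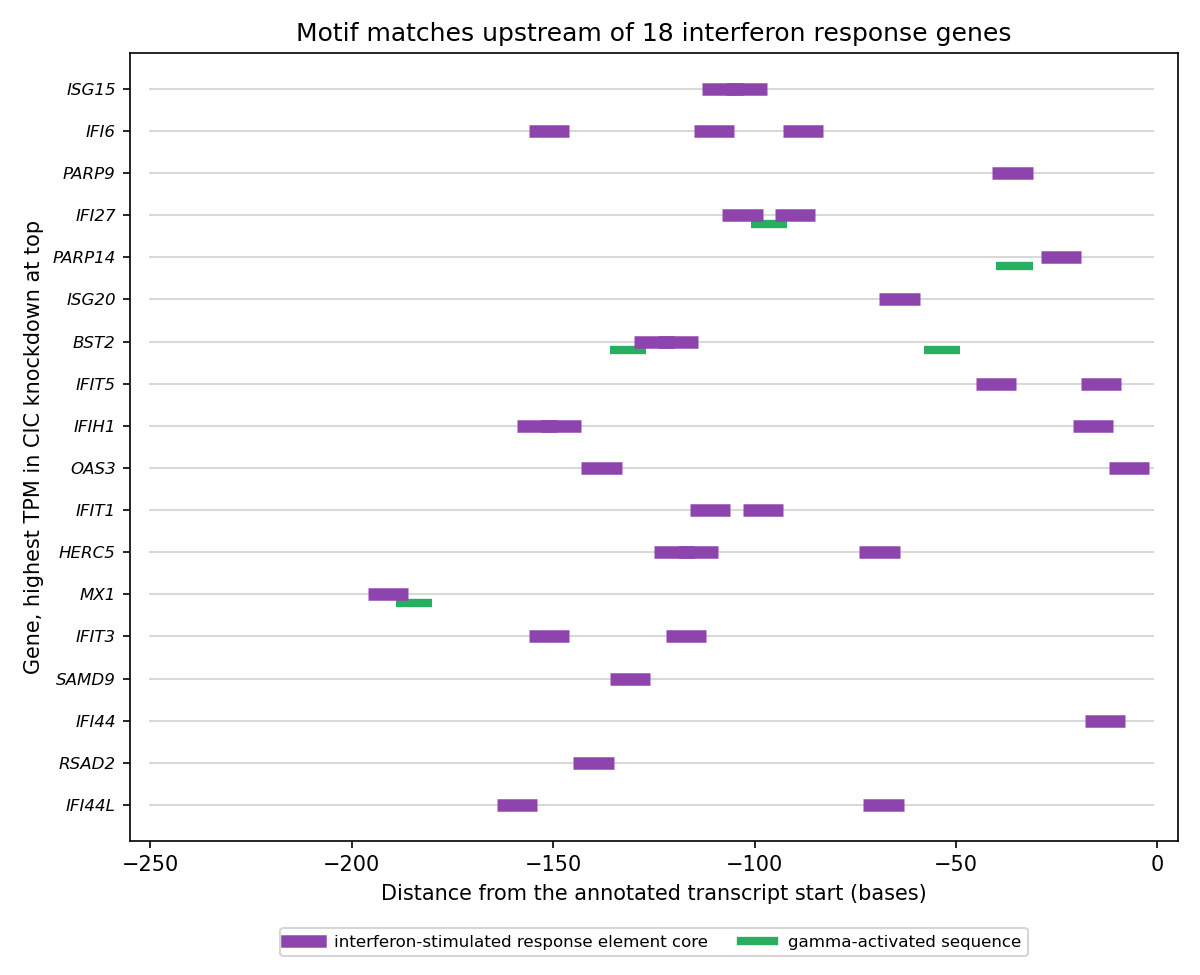
Positions of motif matches (x axis: bases from the annotated transcript start) in the 18 interferon response genes with at least 1 response element core, 1 window per gene. Purple bars are response element cores and green bars gamma-activated sequences, drawn to scale, with genes ordered by TPM in the library labelled CIC knockdown. Each gene drawn carries 1 to 3 cores.

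The programme was transcribed in both libraries over a wide range of levels. In TPM, a level per length of transcript, the lowest, median and highest of the 34 genes were 0.0155, 3.01 and 55.2 in the library labelled CIC knockdown and 0, 3.26 and 50.7 in control. At least 1 TPM was reached by 26 of the 34 genes in each library, and at least 10 TPM by 6 genes in the knockdown-labelled library and 5 in control. ISG15 was the most abundant in both, followed by IFI6, STAT2, IRF9 and PARP9, in the same order. The place of IRF9 in this order and in the counts above rests on the table of annotated transcripts. In the gene table that adds assembled transcripts, described below, IRF9 stood at 1.31 TPM in the knockdown-labelled library and 0.864 TPM in control. At the low end, RSAD2, IFI44, IFI44L, XAF1 and SAMD9L all lay below 0.2 TPM in both libraries. Interferon genes themselves were near or at 0 counts. Of 11 interferon genes in the list, 7 had 0 counts in both libraries, and all 11 summed to 13 counts in the library labelled CIC knockdown and 15 in control. IFNB1, the fibroblast interferon, had 3 counts in the knockdown-labelled library and 0 in control, the lambda interferon IFNL1 had 6 in the knockdown-labelled library and 0 in control, and IFNL2 had 4 in the knockdown-labelled library and 7 in control. IFNG had 0 counts in the library labelled CIC knockdown and 8 in control, with an interval of the ratio from 0 to 0.4, below the minimum of 50 summed counts used below. A count of 0 allows up to 3 counts of a gene in a library.

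**Figure D2:**
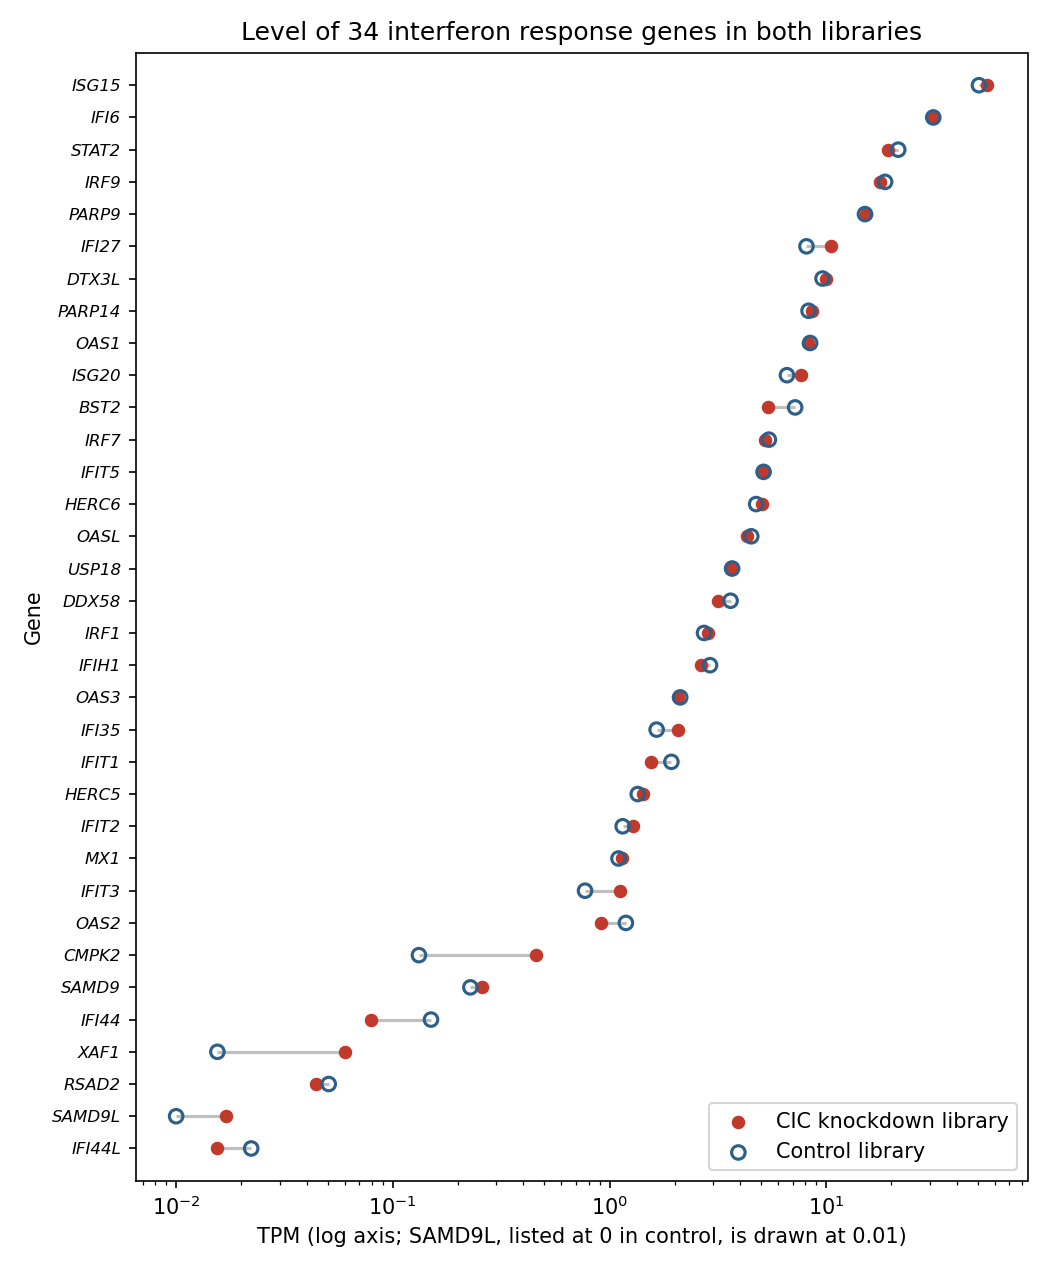
TPM (log axis) of the 34 genes in the library labelled CIC knockdown (filled red) and the control library (open blue), 1 point per library. Most pairs of points coincide. CMPK2, at 0.456 TPM in the knockdown-labelled library and 0.132 TPM in control, is the widest pair above 0.1 TPM in either library.

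Between the libraries, most of the genes stood near equal levels. In bulk RNA, a smaller share of cells transcribing a gene and less RNA per cell cannot be told apart. A gene was counted when both libraries together held at least 50 counts, which left 30 of the 34. RSAD2, SAMD9L, IFI44L and XAF1 fell below that minimum, and IFI44, with 50 counts, lay exactly on it. Of the 30, 28 (93.3%) lay within 1.5-fold of an equal level, against 87.5% of the 16400 genes that passed the same minimum. Their median log2 ratio was -0.01, beside 0.01 over all genes, and the 30 ranged over log2 ratios from -0.83 to 1.5. The counts of all 34 genes summed to 35403 in the library labelled CIC knockdown and 24924 in control, a ratio of 0.969 (0.953 to 0.985). The same ratio over all genes was 0.991. In TPM the 34 genes summed to 233 in the knockdown-labelled library and 230 in control, so the direction of the sum depends on the unit.

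Only CMPK2 was at least 2-fold higher in the library labelled CIC knockdown with an interval above 1, and 0 genes were at least 2-fold lower. Over all genes, 2.17% passed the same rule as higher and 2.06% as lower. By the counting interval alone, 4 of the 30 were higher and 9 lower. The shares over all genes were 30.4% higher and 26.1% lower. Such intervals cover counting error only and not the difference between 2 cultures, so most genes pass at this depth. The members' share lower, 30%, was near that of all genes, and their share higher, 13.3%, was smaller. With library totals in place of normalised totals the members' counts were 5 higher and 7 lower.

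**Figure D3:**
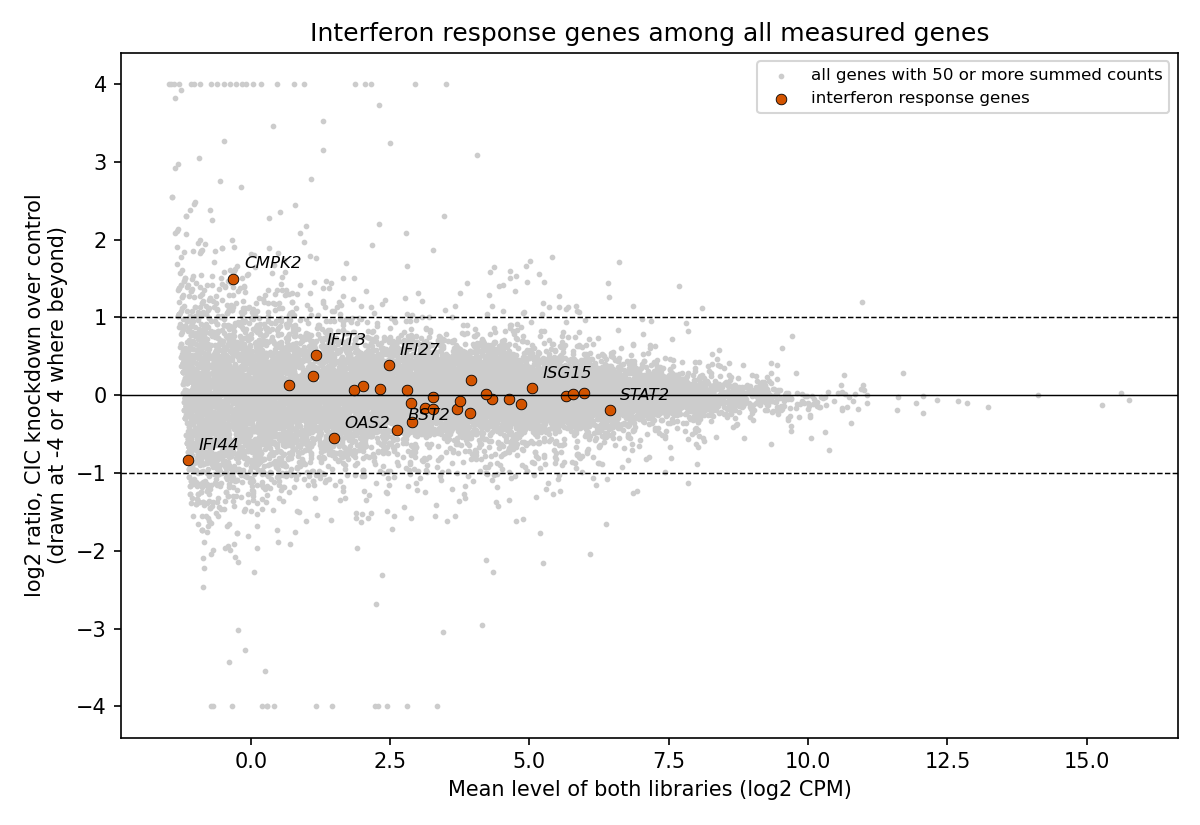
Log2 ratio of the library labelled CIC knockdown over control against mean level (log2 CPM) for 16400 genes (grey) and the 30 interferon response genes with at least 50 summed counts (orange). The orange points lie along the line of equal levels, with CMPK2 above the 2-fold line.

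The transcription factors of the response were at similar or slightly lower levels in the library labelled CIC knockdown. STAT2 (chr12:56341597-56360161 on GRCh38), which carries the activation domain of the interferon complex, had 5575 counts there and 4333 in control, at 19.2 TPM there and 21.5 TPM in control. Its ratio was 0.878 (0.843 to 0.913). IRF9 (chr14:24161265-24166565), the DNA-binding subunit of the complex, had 1915 counts in the knockdown-labelled library and 1409 in control, at a ratio of 0.927 (0.865 to 0.994). IRF1, an activator of antiviral and antigen presentation genes, had 494 counts in the knockdown-labelled library and 320 in control, with a ratio of 1.05 (0.913 to 1.22). IRF7, which amplifies interferon production, had 657 counts in the knockdown-labelled library and 456 in control, with a ratio of 0.983 (0.871 to 1.11). The intervals of STAT2 and IRF9 lay below 1, by less than 1.2-fold, and those of IRF1 and IRF7 held 1. The IRF9 interval held 1 too when counts were halved, as would apply if both mates of each read pair were counted.

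The IRF9 count depends on which gene table is read. An assembled transcript of 27 exons runs from the first bases of the upstream neighbour RNF31 to the end of IRF9 (chr14:24147498-24166565), and it was assigned to RNF31, a subunit of the linear ubiquitin ligase. In the gene table that adds assembled transcripts it holds 2312 counts in the library labelled CIC knockdown and 1646 in control. IRF9 keeps 145 counts in the knockdown-labelled library and 66 in control in that table, a ratio of 1.51 (1.12 to 2.06), opposite in direction to the table of annotated transcripts. RNF31 had 3898 counts in the knockdown-labelled library and 2870 in control among annotated transcripts. With assembled ones it had 5694 in the knockdown-labelled library and 4225 in control. The 2 genes together had a ratio of 0.927 (0.891 to 0.964) in the first table and 0.937 (0.901 to 0.975) in the second. The sum of both genes is thus nearly the same in both tables, and both the level of IRF9 itself and its direction are uncertain.

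Both cytoplasmic RNA sensors were slightly lower in the library labelled CIC knockdown. DDX58 (chr9:32455302-32526196), which encodes RIG-I, a sensor of short RNA with triphosphate ends, had 971 counts there and 776 in control, a ratio of 0.853 (0.776 to 0.939). IFIH1, which encodes MDA5, a sensor of long double-stranded RNA, had 625 counts in the knockdown-labelled library and 483 in control, at a ratio of 0.883 (0.782 to 0.996). In TPM, DDX58 stood at 3.16 in the knockdown-labelled library and 3.62 in control, and IFIH1 at 2.63 in the knockdown-labelled library and 2.91 in control. The IFIH1 interval held 1 when counts were halved.

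The 4 genes of the OAS family, which bind double-stranded RNA, all had ratios below 1. Over all genes, 7805 of the 16400 measured had a log2 ratio below 0. OAS1, OAS2 and OAS3 make the 2-5A messenger that switches on RNase L, whereas OASL has no such activity and enhances RIG-I signalling. OAS2 (chr12:112978466-113011723) was lowest, with 157 counts in the library labelled CIC knockdown and 158 in control despite the greater depth of the first, a ratio of 0.678 (0.540 to 0.851). OAS1 had 834 counts in the knockdown-labelled library and 645 in control, at a ratio of 0.882 (0.795 to 0.979). OAS3 had 910 counts in the knockdown-labelled library and 650 in control, with a ratio of 0.955 (0.862 to 1.06), and OASL had 566 counts in the knockdown-labelled library and 433 in control, with a ratio of 0.892 (0.785 to 1.01). The intervals of OAS2 and OAS1 lay below 1 and the other two held 1, and that of OAS1 held 1 with halved counts. For OAS1 the gap was smaller per length, at 8.25 TPM in the library labelled CIC knockdown and 8.43 TPM in control.

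The IFIT genes, neighbours on chromosome 10, stood at different ratios. IFIT1 (chr10:89392546-89406487) encodes a protein that binds viral RNA lacking host cap methylation and blocks its translation. IFIT1 had 451 counts in the library labelled CIC knockdown and 390 in control, a ratio of 0.789 (0.687 to 0.906). IFIT3 (chr10:89327997-89340968), which encodes a partner that stabilises IFIT1, had 183 counts in the knockdown-labelled library and 87 in control, at a ratio of 1.43 (1.11 to 1.87). IFIT1 was thus lower and IFIT3 higher by their intervals, and both carry 2 response element cores in the windows shown above. The extra counts of IFIT3 lay on the transcript NM_001289758, given below. The IFIT3 interval held 1 when counts were halved. IFIT2 had 288 counts in the knockdown-labelled library and 181 in control, with a ratio of 1.09 (0.898 to 1.31), and IFIT5 had 1364 counts in the knockdown-labelled library and 960 in control, with a ratio of 0.969 (0.892 to 1.05), both with intervals that held 1. IFIT5 overlaps LOC107984251, which had 101 counts in the knockdown-labelled library and 74 in control.

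The 4 members of the ISG15 system stood at equal levels within counting error. From the wider list described below, UBA7 stood at 1.61 (1.04 to 2.56) and UBE2L6 at 0.838 (0.747 to 0.941), and neither interval held 1. ISG15 (chr1:1013497-1014540), the ubiquitin-like protein that is attached to viral and host proteins, had 2331 counts in the library labelled CIC knockdown and 1495 in control, at 55.2 TPM in the knockdown-labelled library and 50.7 TPM in control. Its ratio was 1.06 (0.996 to 1.14). HERC5, the ligase that attaches ISG15, had 354 counts in the knockdown-labelled library and 228 in control, with a ratio of 1.06 (0.894 to 1.26), and its relative HERC6 had 1296 counts in the knockdown-labelled library and 873 in control, with a ratio of 1.01 (0.929 to 1.10). USP18, which removes ISG15 and dampens receptor signalling, had 490 counts in the knockdown-labelled library and 357 in control, with a ratio of 0.936 (0.815 to 1.08). All 4 intervals held 1, and the 4 genes together had a ratio of 1.03 (0.986 to 1.08).

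Antiviral effectors included the highest ratio among the measured members and 1 of the lowest. CMPK2 (chr2:6840417-6866635), a mitochondrial nucleotide kinase, had 83 counts in the library labelled CIC knockdown and 19 in control, at 0.456 TPM in the knockdown-labelled library and 0.132 TPM in control. Its ratio was 2.98 (1.79 to 5.20), and the interval stayed above 1 with halved counts. That ratio is of counts summed over the transcripts of CMPK2. The transcript NM_207315 held 47 counts in the knockdown-labelled library and 19 in control. Another, NR_046236, held 33 in the knockdown-labelled library and 0 in control, so part of the gap lay on that transcript. RSAD2, the viperin gene, is transcribed away from CMPK2, and the annotated spans of the pair overlap at their starts. RSAD2 had 11 counts in the knockdown-labelled library and 8 in control, at a ratio of 0.938 (0.344 to 2.69). The intervals of these neighbours overlapped, and RSAD2 had too few counts for a difference between them to be detectable at this depth. BST2 (chr19:17402939-17405630), the tetherin gene, whose protein holds budding virus at the cell surface, had 358 counts in the knockdown-labelled library and 334 in control, at 5.38 TPM in the library labelled CIC knockdown and 7.19 TPM in control. Its ratio was 0.731 (0.628 to 0.851), and the gene has 1 annotated transcript, so its count was not divided among transcripts.

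ISG20, an exonuclease that degrades viral RNA, had 1139 counts in the library labelled CIC knockdown and 675 in control, a ratio of 1.15 (1.05 to 1.27). MX1, a GTPase that blocks influenza and other viruses, had 253 counts in the knockdown-labelled library and 164 in control, with a ratio of 1.05 (0.861 to 1.29). SAMD9, which restricts poxviruses, had 116 counts in the knockdown-labelled library and 72 in control, with a ratio of 1.10 (0.812 to 1.5). ISG20 was thus higher by its interval, while MX1 and SAMD9 held 1. SAMD9L, the neighbour of SAMD9, had 9 counts in the library labelled CIC knockdown and 0 in control, at least 2.05-fold higher when its 9 counts are set against a floor of 3 counts in the control library. The counting interval of the ratio began at 1.35, and with halved counts it held 1.

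The PARP9 group was closest to equal levels. PARP9 and DTX3L form a complex that mono-ADP-ribosylates and ubiquitinates proteins, and PARP14 is an ADP-ribosyltransferase encoded beside them on chromosome 3. PARP9 had 3469 counts in the library labelled CIC knockdown and 2373 in control, a ratio of 0.997 (0.946 to 1.05). DTX3L had 3803 counts in the knockdown-labelled library and 2570 in control, with a ratio of 1.01 (0.960 to 1.06), and PARP14 had 4376 counts in the knockdown-labelled library and 2935 in control, with a ratio of 1.02 (0.970 to 1.07). These are 3 of the 4 most counted members, so their intervals were among the narrowest, and each lay within 1.2-fold of an equal level. PARP9 and DTX3L overlap on opposite strands, and the sources used here do not state whether counting used the strand.

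Among the remaining genes, IFI27 (chr14:94110736-94116690), which encodes a small mitochondrial membrane protein, had 437 counts in the library labelled CIC knockdown and 228 in control, at 10.5 TPM in the knockdown-labelled library and 8.11 TPM in control. Its ratio was 1.31 (1.11 to 1.54), and the interval stayed above 1 with halved counts. IFI6, a related membrane protein with antiapoptotic activity, had 1680 counts in the knockdown-labelled library and 1181 in control, with a ratio of 0.970 (0.9 to 1.05). The intervals of these relatives did not overlap, with IFI27 higher by its interval and IFI6 at an equal level within counting error. With halved counts the intervals did overlap, at 1.04 to 1.65 for IFI27 and 0.872 to 1.08 for IFI6. IFI35 had 162 counts in the knockdown-labelled library and 93 in control, with a ratio of 1.19 (0.915 to 1.55). IFI44 had 22 counts in the library labelled CIC knockdown and 28 in control, a ratio of 0.536 (0.292 to 0.971), and its interval held 1 with halved counts. Its neighbour IFI44L had 7 counts in each library, and XAF1, an antagonist of the apoptosis inhibitor XIAP, had 17 counts in the knockdown-labelled library and 3 in control, at a ratio of 3.86 (1.12 to 20.6). Both lay below the minimum count.

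**Figure D4:**
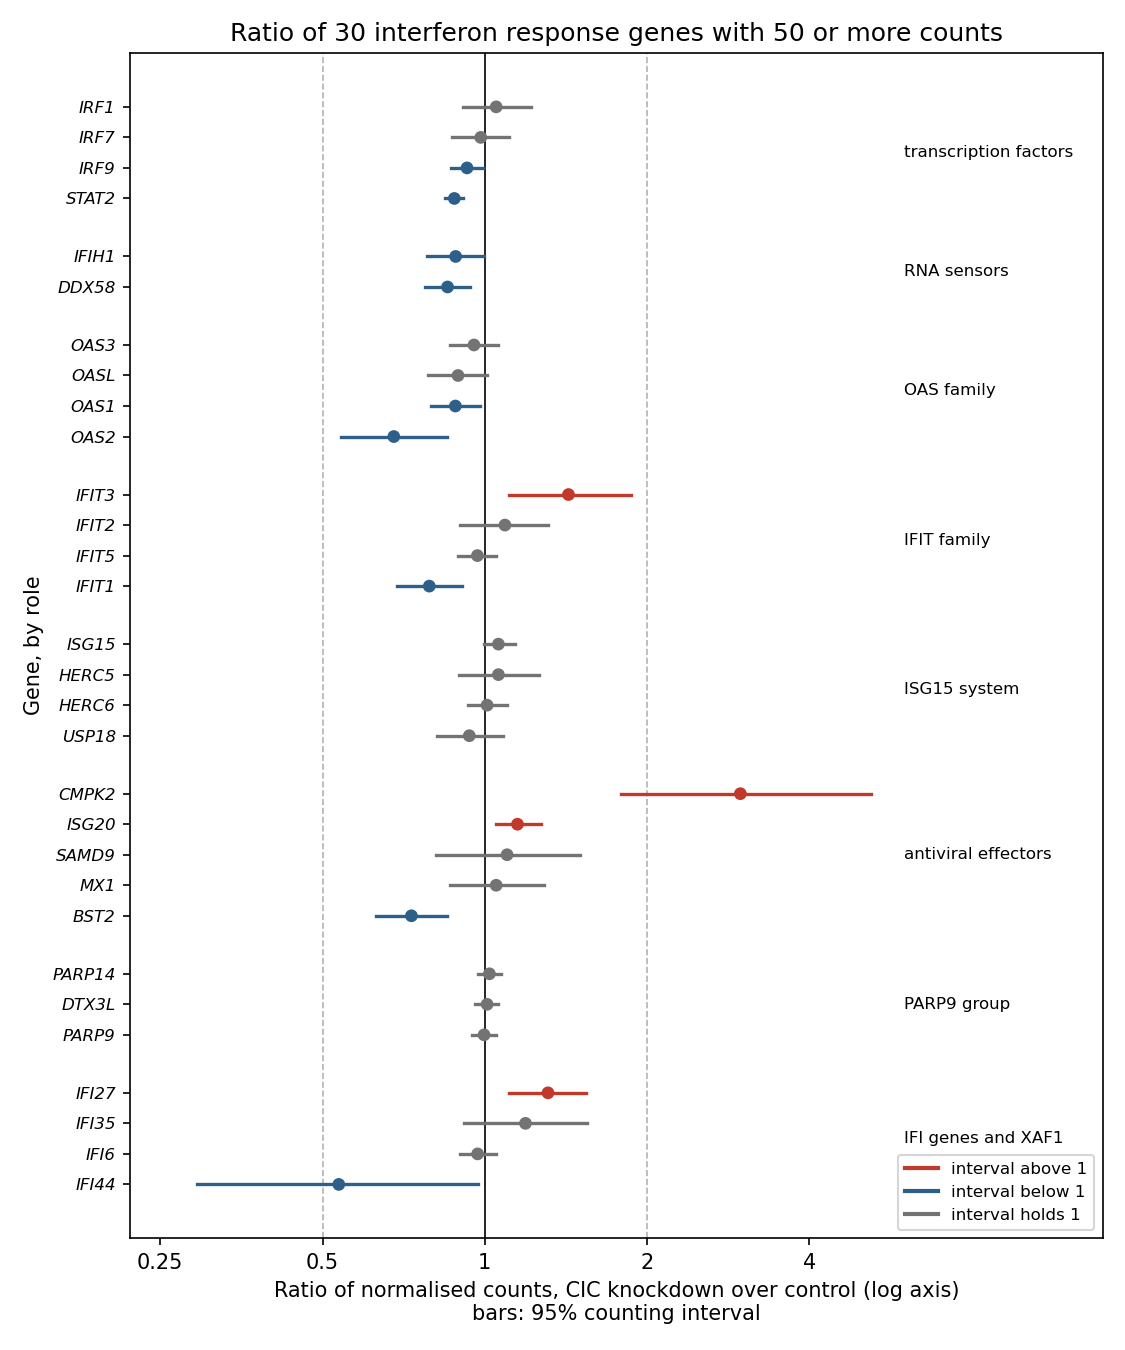
Ratio of normalised counts, the library labelled CIC knockdown over control (log axis), for the 30 genes with at least 50 summed counts, by role. Bars are exact 95% counting intervals, dashed lines mark 2-fold, and colour marks intervals above 1 (red), below 1 (blue) or holding 1 (grey). CMPK2 is the 1 gene past 2-fold.

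The division of counts among annotated transcripts differed between the libraries in some members. Of 22 measured genes with counts on more than 1 transcript, the most counted transcript differed in 5, namely OAS1, SAMD9, MX1, HERC5 and IFI44. That is 22.7%, against 30.9% of 11334 genes with counts on more than 1 transcript. The median share of counts that sat on different transcripts was 17.9% over these 22 genes, beside 17.4% over all such genes. Neither value sets the members apart from other genes, and the transcripts below are given as a description. In SAMD9, the transcript NM_001193307 held 115 of 116 counts in the library labelled CIC knockdown and 0 of 72 in control, where NM_017654 held all 72. In OAS1, NM_016816 held 20 counts in the library labelled CIC knockdown and 615 in control, and XM_017019362 held 496 in the knockdown-labelled library and 0 in control. In MX1, NM_001144925 held 184 counts in the knockdown-labelled library and 22 in control. In HERC5, XM_011532022 held 296 counts in the knockdown-labelled library and 100 in control, and NM_016323 held 58 in the knockdown-labelled library and 128 in control. The transcript that led in 1 library thus gave way to another of the same gene in the other library. The extra counts of IFIT3 lay on NM_001289758, with 89 counts in the library labelled CIC knockdown and 0 in control, while NM_001549 held 91 in the knockdown-labelled library and 85 in control.

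The counts were divided among overlapping transcripts by the authors' estimation, and its part in these shares was not tested. OAS1 transcripts also differ at the last exon, which sets the C-terminal end of the enzyme. The 6 transcripts that end at position 112919903 of chromosome 12 held 591 counts in the library labelled CIC knockdown and 639 in control, or 70.9% of the gene in the knockdown-labelled library and 99.1% in control. The 1 transcript that ends at position 112918026, NM_002534, held 222 counts in the knockdown-labelled library and 2 in control, or 26.6% in the knockdown-labelled library and 0.31% in control. The end at 112918026 thus took a far greater share in the library labelled CIC knockdown. This view by end was chosen after the values were seen. In STAT2, 1 assembled splice variant of 18 exons that is not annotated held 383 counts in the library labelled CIC knockdown and 231 in control, a ratio of 1.14 (0.967 to 1.35).

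**Figure D5:**
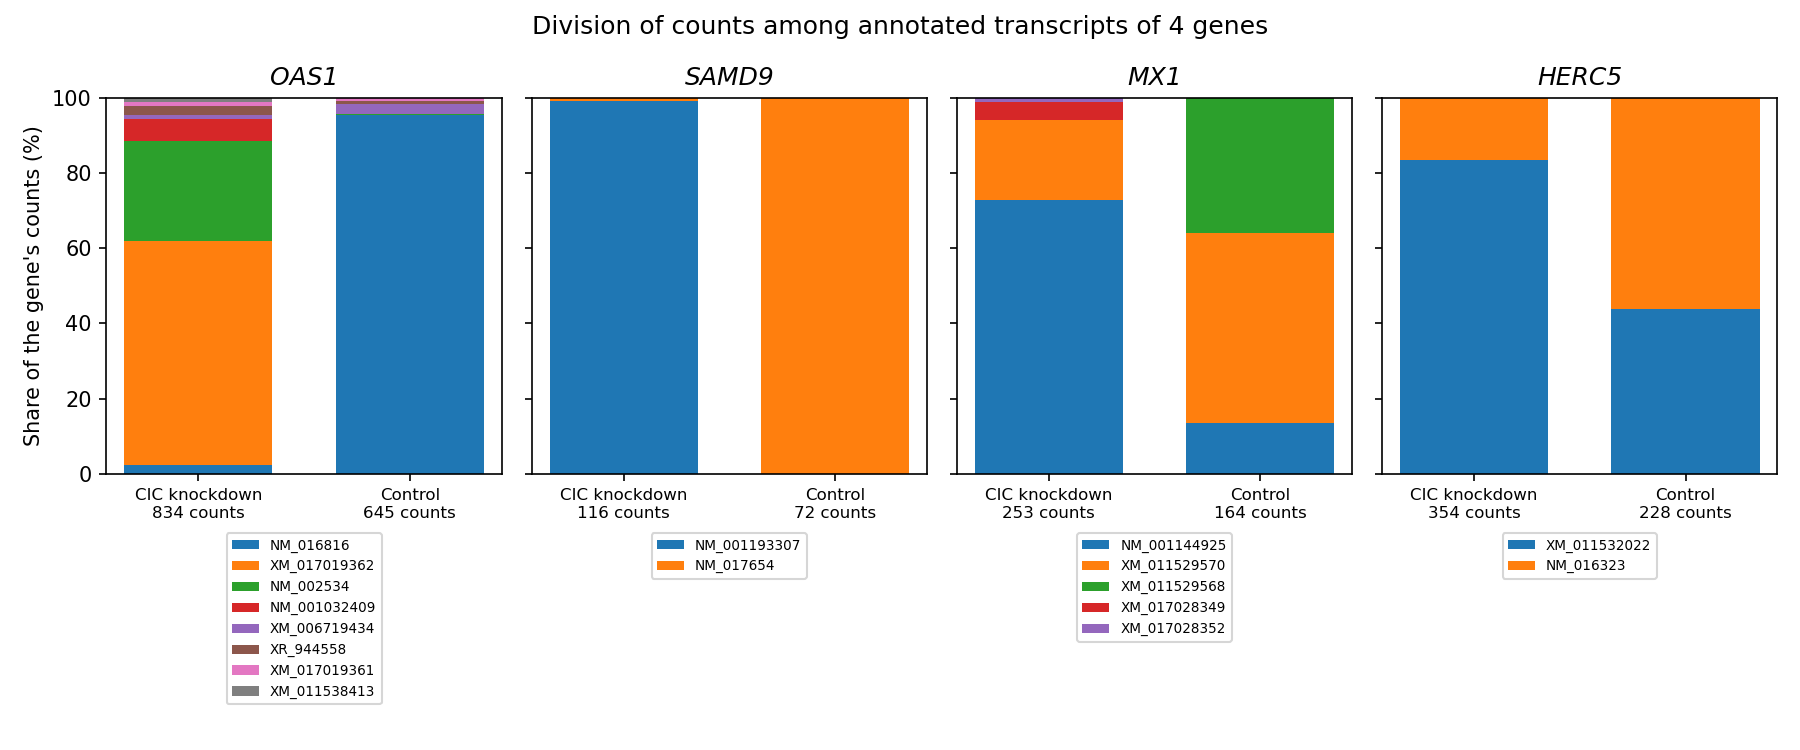
Share of each gene's counts (%) on its annotated transcripts in the library labelled CIC knockdown (left bar) and the control library (right bar) for OAS1, SAMD9, MX1 and HERC5, with the gene's count under each bar. The leading transcript differs between the bars in all 4 genes.

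The receptors and kinases upstream of these genes were all measured, and by interval 3 of 9 (33.3%) were higher and 2 (22.2%) lower, near the 30.4% and 26.1% of all genes. IFNAR2, 1 chain of the type I receptor, had 465 counts in the knockdown-labelled library and 256 in control, a ratio of 1.24 (1.06 to 1.45). IFNAR1, the other chain, had 2113 counts in the knockdown-labelled library and 1455 in control, with a ratio of 0.99 (0.926 to 1.06). IFNLR1, the lambda interferon receptor, had 77 counts in the knockdown-labelled library and 27 in control, at a ratio of 1.95 (1.24 to 3.14), whereas its partner chain IL10RB had 1311 counts in the knockdown-labelled library and 1042 in control, at a ratio of 0.858 (0.790 to 0.932). The kinases TYK2 and JAK1 stood at 1.13 (1.07 to 1.19) and 0.917 (0.890 to 0.944). No receptor or kinase reached 2-fold.

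Of 12 negative regulators of cytokine signalling, 6 (50%) were higher by interval and 2 (16.7%) lower, against 30.4% and 26.1% of all genes. Their median log2 ratio was 0.06. SOCS1, SOCS2 and SOCS3, which encode inhibitors of JAK kinases and their receptors, had the highest ratios of the list. SOCS1 had 79 counts in the knockdown-labelled library and 28 in control, a ratio of 1.92 (1.24 to 3.08). SOCS2 had 538 counts in the knockdown-labelled library and 219 in control, with a ratio of 1.68 (1.43 to 1.97), and SOCS3 had 1092 counts in the knockdown-labelled library and 488 in control, with a ratio of 1.53 (1.37 to 1.70). PIAS3, an inhibitor of STAT3, stood at 1.33 (1.27 to 1.40). The related CISH, named after its value was seen, stood at 0.812 (0.695 to 0.949), so the SOCS family was not higher throughout.

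Among 21 genes of nucleic acid sensing and its signalling, 15 were measured, of which 9 (60%) were higher and 1 (6.67%) lower by interval, against 30.4% and 26.1% of all genes. Their median log2 ratio was 0.19. DHX58, which encodes LGP2, a helicase that modulates RIG-I and MDA5, passed the 2-fold rule with 62 counts in the library labelled CIC knockdown and 19 in control, a ratio of 2.23 (1.31 to 3.94). It was the 1 gene of the 15 past that rule, beside 2.17% of all genes that passed as higher. The Toll-like receptor adaptor MYD88 had 340 counts in the knockdown-labelled library and 121 in control, at a ratio of 1.92 (1.55 to 2.38). The DNA sensor CGAS stood at 1.28 (1.10 to 1.49) and TREX1, a nuclease that clears cytoplasmic DNA, at 1.27 (0.727 to 2.27). Of the 3 RIG-I-like helicases, DHX58 was thus higher, and DDX58 and IFIH1 lower, by their intervals. The other STAT and IRF genes had 2 of 8 measured members (25%) higher and 4 (50%) lower, against the same shares of all genes, from STAT3 at 0.82 (0.781 to 0.861) and IRF2 at 0.864 (0.778 to 0.959) to IRF3 at 1.12 (1.06 to 1.18) and IRF5 at 1.14 (1.04 to 1.25).

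A wider list of 50 interferon-stimulated genes had 38 measured, of which 8 (21.1%) were higher and 12 (31.6%) lower by interval, against 30.4% and 26.1% of all genes. Their median log2 ratio was -0.03. PARP12, an ADP-ribosyltransferase, stood at 1.53 (1.32 to 1.77) with 589 counts in the library labelled CIC knockdown and 263 in control. UBA7, the enzyme that activates ISG15 for attachment, stood at 1.61 (1.04 to 2.56) with 71 counts in the knockdown-labelled library and 30 in control. SHISA5 had 3624 counts in the knockdown-labelled library and 4526 in control, at a ratio of 0.546 (0.523 to 0.571). NLRC5, an activator of class I antigen presentation genes, passed the 2-fold rule as lower with 21 counts in the knockdown-labelled library and 29 in control, at a ratio of 0.494 (0.268 to 0.897). Its 50 summed counts lay exactly on the minimum. It was the 1 gene of the 38 past that rule, beside 2.06% of all genes that passed as lower. Among the 12 listed genes below the minimum, GBP1 had 41 counts in the knockdown-labelled library and 3 in control, a ratio of 9.32 (2.97 to 47.1). MX2 had 27 in the knockdown-labelled library and 8 in control, at 2.3 (1.02 to 5.86), and CD274 had 9 and 0. PSMB9 went the other way, with 8 in the knockdown-labelled library and 16 in control, at 0.341 (0.126 to 0.845). Of the 38 measured genes, 34 (89.5%) lay within 1.5-fold of equal levels, near the 87.5% of all genes.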

How the data were processed

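The authors deposited, for each gene and transcript and per the file headers, an estimated count, with FPKM and TPM values, in both libraries. Per the submitters' processing notes, HISAT2, StringTie and Trimmomatic were used, on hg38 and GRCh38. Per the labels' protocols, libraries were made with a stranded total RNA kit. The deposited counts were whole numbers and were not rounded further. Columns marked KD and C were matched to the samples by title.

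Totals of 68420805 (knockdown label) and 47099221 (control) counts were scaled by TMM factors of 1.005 and 0.995 from edgeR 4.0.16 in R 4.3.3. Ratios have exact Clopper-Pearson 95% intervals given the summed count, from SciPy 1.17.1, which cover counting error only. PCR copies are not independent molecules. Log2 ratios used a prior count of 2. With 1 library per group there was no test and no p-value. The interval code was tested on simulated data. Size factors from DESeq2 1.42.0, other minimums, priors and thresholds, halved counts, TPM, FPKM and the table with assembled transcripts were tried as alternatives.

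All members were named. Of the other lists, genes with at least 50 summed counts were named where past 2-fold or among the 4 with the largest absolute log2 ratio. Any interferon, receptor or kinase could be named. Some cell type markers were named outside this rule. So were UBE2L6, GBP1, MX2, CD274 and PSMB9, after their values were seen. Members and lists were chosen with earlier results of these data known.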

Additional observations from a re-analysis of the deposited data

How the results depend on the processing

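Over 7 alternatives of scaling, prior, unit and gene table, 229 of 238 log2 ratios of single genes stayed within their counting interval, 8 moved outside it and 1 reversed. The reversed one was IRF9, at 0.59 in the gene table that adds assembled transcripts, against -0.11, where the assembled RNF31 transcript spans IRF9. The 8 that moved were of OAS1, OAS2, CMPK2, SAMD9L and XAF1, all in TPM or FPKM with a pseudocount. The median log2 ratio of the measured members stayed between -0.03 and 0.02. The number of members at least 2-fold higher was 3 with no minimum count, where XAF1 and SAMD9L joined CMPK2, 0 with a minimum of 200 counts, which removes CMPK2, and 0 in TPM with a pseudocount of 1. At a 1.5-fold threshold, 1 member, IFI44, was lower. With halved counts, 5 members in place of 9 were lower by interval. Depth limits the lowest genes: the intervals of RSAD2 and IFI44L hold 2-fold in both directions. No paired analysis was possible because each group has 1 library, and for the same reason no library could be left out.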
